A study of Homo sapiens with 10 samples.

Results

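The 10 genes described here encode surface proteoglycans, caveolae coat proteins and cytoskeletal or vesicle proteins linked to macropinocytosis: SDC1, SDC4, CAV1, CAV2, CTTN, PAK1, PAK2, ARF6, EZR and DAB2. They were chosen by name, and each matched 1 row of the 36498 genes in the deposited table. Expression was measured in AsPC-1, an established human pancreatic ductal adenocarcinoma line, in 5 glutamine-starved and 5 control libraries. Starved cells spent 24 h in glutamine-free RPMI with 10% dialysed fetal bovine serum. Control cells spent 24 h in complete RPMI, also with 10% serum. The labels do not say whether the control serum was dialysed, so the effects of glutamine and of serum dialysis cannot be told apart. All libraries come from 1 cell line, and nothing in the labels says that equal replicate numbers share a culture or that replicates are separate cultures, so p-values measure the spread between these libraries only.

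Macropinocytosis is the engulfment of extracellular fluid by actin-driven folds of the plasma membrane, and pancreatic cancer cells use it to take up protein that is then broken down to amino acids. Syndecan-1 at the cell surface is known to promote this uptake in pancreatic tumour cells, the small GTPase ARF6 recycles membrane to and from the surface, and the PAK kinases and cortactin act on the actin network that shapes the membrane. Caveolae are small flask-shaped membrane pits built from caveolins and cavins, and they serve endocytosis, signalling and the buffering of membrane tension.

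Both syndecans and both caveolins stood higher in starved cells, CTTN stood lower, and no change was called in PAK1, PAK2, ARF6 or EZR. SDC4 had 4.68 times and SDC1 3.04 times its control level, CAV2 2.23 times and CAV1 1.39 times. CTTN, which encodes the actin-branching scaffold cortactin, was at 52.7% of its control level. DAB2 was near 0 in both media. Levels are in CPM, counts scaled to 1000000 per library, and folds are ratios of group means. Changes were tested with limma on log2(CPM + 1) over the 11202 genes whose average over the libraries reached 5 CPM, with Benjamini-Hochberg adjustment, and a gene was called at an adjusted p under 0.05. Of the 10 genes 9 entered the test and 5 were called, 4 higher and 1 lower. Among all tested genes 43.3% were called, 17.2% higher and 26.1% lower. In the same 5 genes no starved library lay within the control range, 4 with all starved libraries above and 1 with all below, against 30.4% of all tested genes, 12.5% above and 17.9% below. The median log2 change was 0.07 over the 9 genes and -0.22 over all tested genes.

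**Figure D1:**
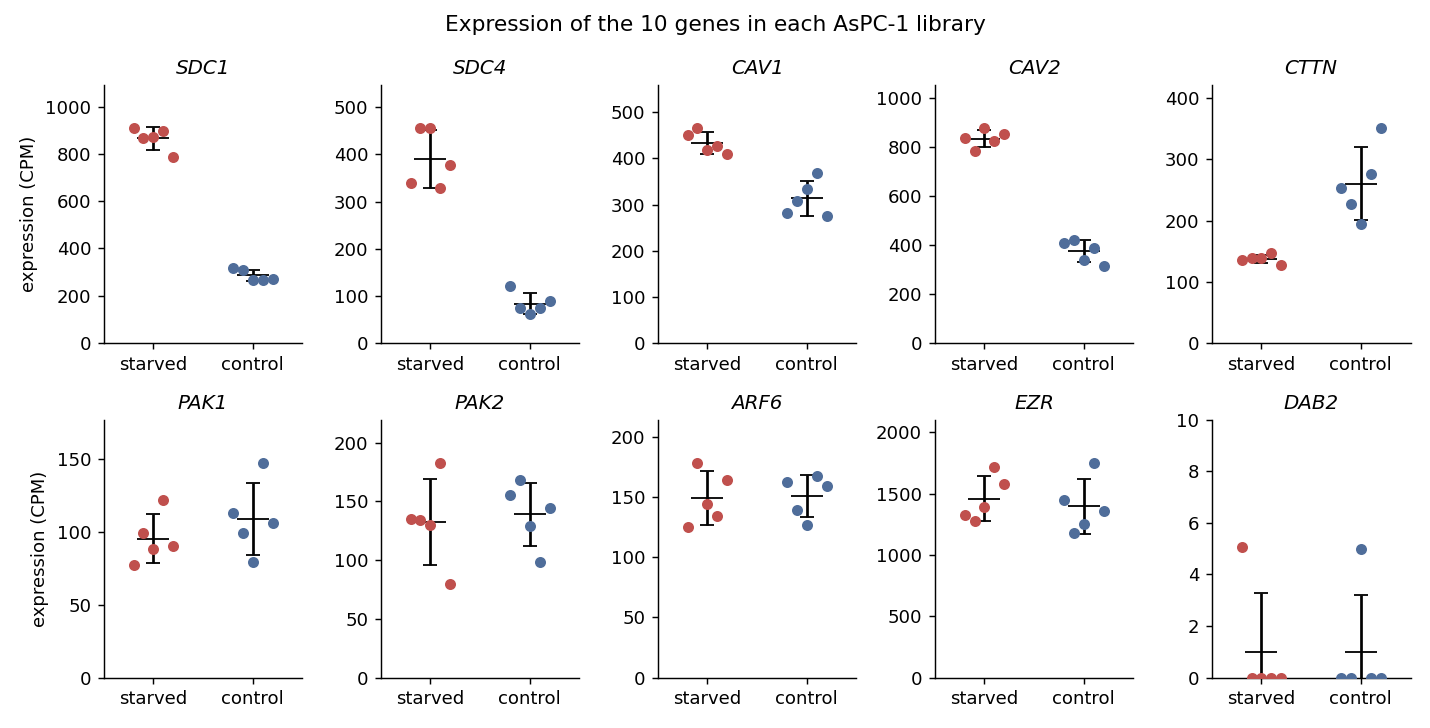
CPM (y axis, linear, from 0, with its own range in each panel) of each of the 10 genes in the 5 starved (left) and 5 control (right) libraries; points are libraries, the horizontal mark is the mean and the bars are 1 SD, cut off at 0 for DAB2. The groups are apart in SDC1, SDC4, CAV1, CAV2 and CTTN and overlap in the other genes.

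Depth sets what can be seen. Counts recovered from the CPM steps totalled 164008 to 593248 in starved libraries and 141763 to 474619 in control libraries, with medians of 201642 and 395645. A single count was worth 1.69 to 7.05 CPM. The epithelial markers summed to 2671 to 2956 CPM in starved and 12188 to 13267 CPM in control libraries: KRT8, KRT18, KRT19 and EPCAM were called lower, KRT7, CDH1 and CLDN4 were not called, and CLDN7 was at 0 in all libraries. Fibroblast markers summed to 26.5 to 36.6 CPM in starved and 84.6 to 157 CPM in control libraries, mostly LUM, with COL3A1, DCN and PDGFRA at 0 throughout. Endothelial markers held 12 counts in starved and 2 in control libraries, with CDH5, TEK and CLDN5 at 0. Leukocyte markers summed to 74.4 to 122 CPM in starved and 96.9 to 141 CPM in control libraries, and of these CD68 was called higher and LYZ lower. The part of these shifts in the results below was not tested. All libraries are of the AsPC-1 line, so a marker here does not show that cells of another type were present. In bulk RNA, fewer cells with a transcript and less of it per cell cannot be told apart.

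Because SDC1, SDC4, CAV1 and CAV2 moved in the same direction, the 250 bases before their RefSeq starts are shown, from the GRCh38.p14 promoter table, 5′ to 3′ on the gene's own strand. They lie at chr2:20225476-20225725 (minus strand), chr20:45348425-45348674 (minus strand), chr7:116524759-116525008 (plus strand) and chr7:116499488-116499737 (plus strand). The submitters' processing notes name build hg19, and no coordinate was carried over between builds. Capitals mark matches to the GC box GGGCGG or to the Slug-type E-box CAGGTG, read on either strand.
SDC1: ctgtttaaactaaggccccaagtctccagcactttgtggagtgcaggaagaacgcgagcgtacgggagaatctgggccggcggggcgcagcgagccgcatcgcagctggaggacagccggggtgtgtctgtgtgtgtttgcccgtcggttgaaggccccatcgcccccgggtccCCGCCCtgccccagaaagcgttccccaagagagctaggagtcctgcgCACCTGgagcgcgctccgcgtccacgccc
SDC4: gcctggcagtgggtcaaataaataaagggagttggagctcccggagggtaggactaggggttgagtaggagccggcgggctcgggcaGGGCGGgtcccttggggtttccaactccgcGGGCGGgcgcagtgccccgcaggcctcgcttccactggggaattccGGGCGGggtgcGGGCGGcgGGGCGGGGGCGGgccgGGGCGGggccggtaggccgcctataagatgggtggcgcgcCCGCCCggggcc
CAV1: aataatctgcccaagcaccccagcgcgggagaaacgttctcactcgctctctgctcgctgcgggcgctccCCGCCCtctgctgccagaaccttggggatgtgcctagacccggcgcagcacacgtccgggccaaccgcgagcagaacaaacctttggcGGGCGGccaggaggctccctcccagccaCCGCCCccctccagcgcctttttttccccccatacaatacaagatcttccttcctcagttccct
CAV2: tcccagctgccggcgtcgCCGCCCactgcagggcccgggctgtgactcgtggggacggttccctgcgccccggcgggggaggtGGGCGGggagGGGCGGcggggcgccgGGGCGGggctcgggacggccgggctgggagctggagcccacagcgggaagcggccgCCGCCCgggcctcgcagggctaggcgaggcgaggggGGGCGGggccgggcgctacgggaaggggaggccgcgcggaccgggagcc

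The E-box match in SDC1 reads CACCTG and lies 29 to 24 bases before the start, and a single GC box lies 76 to 71 bases before it. The SDC4 window holds 8 GC box matches, CAV2 holds 6 and CAV1 holds 3. The 9 of the 10 genes with an entry in the table each have at least 1 GC box, PAK1, PAK2, ARF6, EZR and DAB2 included, against 42.6% of 35116 promoters of the same length. The E-box CAGGTG is in 17.5% of promoters and, among the 9, in SDC1 alone. The AP-1 motif TGANTCA is in 6.57% of promoters and, among the 9, in EZR alone, where TGACTCA lies 56 to 50 bases before the start. None of the 9 windows holds the cAMP response element TGACGTCA (1.65% of promoters), the C/EBP-ATF element TGATGNAA (3.14%) or TATAAA (10.7%). For NF-kB only a narrow pattern with most letters fixed was searched, found in 1.73% of promoters and in none of the 9 windows. Looser forms of the NF-kB site were not searched, so that result does not show that the windows, SDC4 included, lack such a site. Some GC box matches overlap by a base, in PAK2 and in EZR. Windows were 59.6% to 83.2% G and C, against a median of 58% over all promoters. These matches describe letters in a short window and not bound sites.

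SDC1 encodes syndecan-1, a transmembrane proteoglycan that carries heparan sulfate and is abundant on epithelial cells. Its level was 910.2, 868, 874, 896 and 786 CPM in the starved libraries and 317, 308, 266, 266 and 270.4 CPM in the control libraries. The lowest starved library lies far above the highest control library. SDC1 averaged 867 ± 48.5 CPM in starved and 285 ± 25.0 CPM in control cells (SD, n = 5 each; log2 change 1.60, SE 0.10, limma adjusted p = 2.3e-11). Only 8.53% of all tested genes had a larger log2 change upward.

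SDC4 encodes syndecan-4, the broadly expressed family member of focal adhesions, which binds protein kinase C alpha. It stood at 339, 456, 456, 329 and 377 CPM in the starved libraries and at 119.9, 73.7, 62.1, 73.8 and 88.5 CPM in the control libraries. All starved libraries were at least 329 CPM, and no control library passed 119.9 CPM. The means were 391 ± 61.6 CPM in starved and 83.6 ± 22.3 CPM in control cells (SD, n = 5 each; log2 change 2.24, SE 0.17, limma adjusted p = 6.8e-10). This was the largest rise among the 9 genes, and 4.25% of all tested genes had a larger one. The wider scatter of SDC4 in starved libraries came to 2.53 times the variance expected from counting alone, against 0.655 times for SDC1. SDC4 has a pseudogene, SDC4P, whose reads could be mixed with its own, and the sense-intronic AL021578.1 inside it had 2 counts in starved and 0 in control libraries.

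The summed syndecan tags stood higher in every starved library, and SDC4 made up a larger share of them. The 4 syndecans summed to 1269.7 ± 73.7 CPM in starved and 379 ± 53.0 CPM in control libraries. SDC1 made up 68.3% ± 3.73 of that sum in starved and 75.9% ± 5.22 in control libraries, and SDC4 30.7% ± 3.73 and 21.8% ± 3.01. The ratio of SDC4 to SDC1 within a library was 0.372, 0.526, 0.521, 0.367 and 0.480 in starved and 0.378, 0.240, 0.234, 0.278 and 0.327 in control libraries. The ratios overlap, because control replicate 1 lies above the 2 lowest starved libraries, and whether SDC4 rose more than SDC1 was not tested. SDC2 had 1 count over the starved and 2 counts over the control libraries, too few to test. SDC3, the neural syndecan, had 15 and 10 counts and was not called (log2 change 0.62, 95% interval -1.30 to 2.54, limma adjusted p = 0.615).

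CAV1 encodes caveolin-1, the main coat protein of caveolae. Its level was 452, 466, 418, 427 and 409 CPM in the starved libraries and 282, 308, 333, 369 and 276 CPM in the control libraries. The groups are apart by a narrow margin, 409 against 369 CPM. CAV1 averaged 434 ± 23.9 CPM in starved and 313 ± 38.5 CPM in control cells (SD, n = 5 each; log2 change 0.48, SE 0.11, limma adjusted p = 0.00147).

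CAV2, its neighbour on chromosome 7, encodes caveolin-2, which forms complexes with caveolin-1. It stood at 836, 784, 879, 823 and 855 CPM in the starved libraries and at 409, 421, 338, 389 and 316 CPM in the control libraries. Every starved library was above every control library by a wide gap. The means were 835 ± 35.6 CPM in starved and 375 ± 45.7 CPM in control cells (SD, n = 5 each; log2 change 1.16, SE 0.10, limma adjusted p = 6.9e-09). The ratio of CAV2 to CAV1 within a library was 1.85, 1.68, 2.10, 1.93 and 2.09 in starved and 1.45, 1.37, 1.01, 1.05 and 1.15 in control libraries, without overlap; this difference was not tested. CAV3, the muscle caveolin, had 4 counts over the starved and 3 over the control libraries. The antisense genes AC073130.2 and AC002066.1 overlap CAV2 and held 29 and 41 counts in starved and 14 and 30 counts in control libraries, against 1139 and 598 counts of CAV2. The use of strand is not given in the sources used here, so these reads cannot be fully assigned. Of the antisense genes at CAV1 and CTTN, AC006159.1 had 0 counts in starved and 1 in control libraries, and AP000487.1 had 6 and 7.

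**Figure D2:**
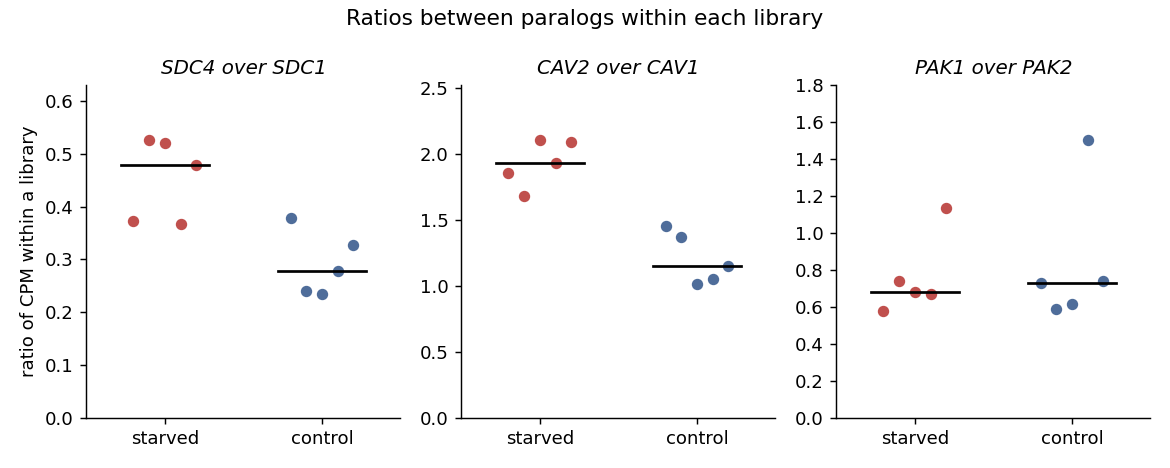
Ratio of CPM between paralogs within each library (y axis, linear, from 0), for SDC4 over SDC1, CAV2 over CAV1 and PAK1 over PAK2, in 5 starved (left) and 5 control (right) libraries; points are libraries and lines are medians. The CAV2 to CAV1 ratio is 1.68 to 2.10 in starved and 1.01 to 1.45 in control libraries, while the other ratios overlap between the groups.

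CTTN encodes cortactin, which binds and stabilizes branched actin and is found in membrane ruffles. It stood at 135, 139, 139, 146 and 127 CPM in the starved libraries and at 254, 228, 194, 276 and 351 CPM in the control libraries. The starved libraries lie close together and all below the lowest control library. The means were 137 ± 6.95 CPM in starved and 260.4 ± 59.3 CPM in control cells (SD, n = 5 each; log2 change -0.89, SE 0.15, limma adjusted p = 6.4e-05). Control libraries scattered with 5.44 times the variance of counting, and starved libraries with 0.0662 times. Of all tested genes 30.1% had a larger log2 change downward, so the fall of CTTN is of common size here.

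PAK1 and PAK2 encode group I p21-activated kinases, which act downstream of RAC1 and CDC42. PAK1 ranged from 77.5 to 122 CPM in the starved libraries (median 90.2) and from 79.5 to 148 CPM in the control libraries (median 106). Its log2 change was -0.18, with a 95% interval of -0.58 to 0.22 (limma adjusted p = 0.475). PAK2 ranged from 79.6 to 183 CPM in the starved libraries (median 134) and from 98.4 to 169 CPM in the control libraries (median 144), a log2 change of -0.10 with an interval of -0.51 to 0.32 (limma adjusted p = 0.727). The groups overlap in both, and at 15 to 80 counts per library a modest change of either kinase in either direction could be missed.

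ARF6 encodes a small GTPase of endocytic recycling. Its level was 125, 179, 144, 134 and 165 CPM in the starved libraries and 162, 139, 127, 167 and 159 CPM in the control libraries, fully intermixed. The log2 change was -0.02, with a 95% interval of -0.34 to 0.30 (limma adjusted p = 0.926). EZR encodes ezrin, which ties the plasma membrane to actin. It stood at 1322, 1279.5, 1389.9, 1713 and 1582 CPM in the starved libraries and at 1446, 1178, 1250.2, 1752 and 1357 CPM in the control libraries. Its log2 change was 0.07, with an interval of -0.15 to 0.29 (limma adjusted p = 0.644), and both groups scattered well beyond counting, with 5.11 times its variance in starved and 9.71 times in control libraries.

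DAB2 encodes an adaptor of clathrin-mediated endocytosis. It had 3 counts, all in starved replicate 1, and 2 counts, both in control replicate 3, and 0 counts elsewhere. The pooled ratio of starved to control was 1.78, with an exact binomial 95% interval of 0.204 to 21.3 that covers counting error only. DAB2 did not pass the 5 CPM filter, and a change was not detectable at this depth. The protein-coding gene C9 overlaps DAB2 on the same strand and had 5 counts in starved and 15 in control libraries. Whether reads shared with C9 lowered the DAB2 counts was not tested.

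**Figure D3:**
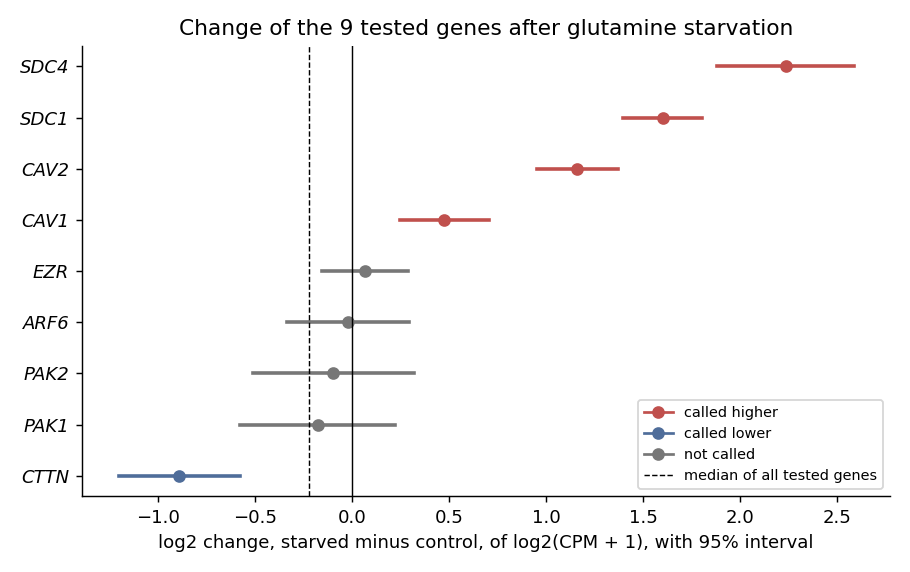
Log2 change of log2(CPM + 1), starved minus control, with its 95% interval from limma (x axis) for the 9 tested genes (y axis, ordered by change); the dashed line is the median of all tested genes at -0.22. The intervals of SDC4, SDC1, CAV2 and CAV1 lie above 0, that of CTTN lies below 0, and those of EZR, ARF6, PAK2 and PAK1 cross 0.

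The order of change was SDC4, SDC1, CAV2, CAV1, EZR, ARF6, PAK2, PAK1 and CTTN. The intervals of EZR, ARF6, PAK2 and PAK1 overlap one another, whereas those of SDC4 (1.88 to 2.59), SDC1 (1.40 to 1.81), CAV2 (0.95 to 1.37) and CAV1 (0.25 to 0.71) do not overlap one another. The interval of CAV1 overlaps that of EZR (-0.15 to 0.29) at its edge. Differences between genes were not tested. Among the 7005 genes that averaged 20 CPM or more, the profiles most like SDC4 over the 10 libraries were PTP4A1, DPH3 and IL6ST. Their root mean square distances from the SDC4 profile were 0.18, 0.18 and 0.21 in log2 units. Each profile was first centred on its own mean over the control libraries. PTP4A1, a phosphatase, averaged 204 ± 13.2 CPM in starved and 44.0 ± 8.22 CPM in control cells. The profiles most like CTTN were C19orf70, HDAC2 and G3BP1, at distances of 0.16, 0.16 and 0.18.

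A further 10 lists held 226 partners of these genes, of which 173 were tested. Of these 32 were called higher and 47 lower, 45.7% in all, close to the 43.3% of all tested genes, and their median log2 change was -0.04. The split depended on the test: edgeR's quasi-likelihood test called 43 higher and 43 lower, and DESeq2 called 34 and 37. The counts of each list stand against 17.2% called higher and 26.1% called lower among all tested genes, and no list was tested as a whole. Counts and medians of single lists are from the main setting only. They were not followed through the alternatives, under which the median of all tested genes shifted.

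Among the other syndecans and glypicans 1 of 4 tested genes was called higher and 0 lower. This was GPC6, with 23 counts in starved and 15 in control libraries, whose groups overlap (limma adjusted p = 0.0488). The call ended when 8 of the 10 libraries were each left out in turn, all but control replicates 2 and 5, without control replicates 1 and 2 together, with a pseudocount of 0.5, with TMM scaling, and in edgeR and DESeq2 (adjusted p 0.054 to 0.211 over these). GPC1, another glypican, averaged 73.7 ± 21.9 CPM in starved and 74.1 ± 11.2 CPM in control cells and was not called.

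Enzymes that build or edit heparan sulfate, the sugar chain of syndecans, were called lower in 8 of 21 tested cases and higher in 0, against 26.1% lower and 17.2% higher among all tested genes. SULF2, a secreted endosulfatase that trims the chain's sulfates, fell to 78.0 ± 22.4 CPM in starved cells, against 454 ± 72.5 CPM in control cells (limma adjusted p = 3.0e-10). PAPSS2, which makes the sulfate donor, fell to 11.8 ± 4.89 CPM, against 63.6 ± 14.7 CPM in control cells (limma adjusted p = 3.2e-05). EXT1, a polymerase of the chain, was not called, with 90.0 ± 27.4 CPM in starved and 91.2 ± 32.1 CPM in control cells. The median log2 change of these 21 genes was -0.59, against -0.22 for all tested genes. The groups overlapped in NDST1, called lower at 4 counts in starved and 17 in control libraries (limma adjusted p = 0.0492). They also overlapped in HS2ST1 (3 and 23 counts), EXT2 (21 and 47) and EXTL3 (26 and 68). In SULF2, PAPSS2, PAPSS1 (16 and 70) and UXS1 (37 and 75) the groups were apart. All but SULF2 and PAPSS2 were named after their values were seen, and those calls were not followed through the alternatives.

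Of the syndecan partners and sheddases 3 of 11 were called higher and 2 lower. SDCBP2, a PDZ protein related to syntenin, stood at 73.8 ± 18.5 CPM in starved and 7.42 ± 3.98 CPM in control cells (limma adjusted p = 2.7e-06), while SDCBP, syntenin itself, was not called, with 190.1 ± 15.7 and 169.9 ± 25.7 CPM. The metalloproteases ADAM9 and ADAM17 rose, ADAM9 to 236 ± 36.9 CPM in starved against 160.1 ± 25.9 CPM in control cells, and ADAM17, a known syndecan sheddase named after its values were seen, to 102 ± 13.6 against 25.9 ± 15.7 CPM (limma adjusted p = 5.4e-05). MMP7, another sheddase of syndecan-1, fell to 19.0 ± 11.1 CPM in starved cells, against 125 ± 24.9 CPM in control cells (limma adjusted p = 3.9e-07). The other gene called lower was PRKCA, which encodes protein kinase C alpha. It stood at 26.6 ± 12.8 CPM in starved and 60.9 ± 9.52 CPM in control cells (limma adjusted p = 0.00297). PRKCA was named after its values were seen, and its call was not followed through the alternatives.

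Caveolae genes other than CAV1 and CAV2 went both ways, 4 of 10 tested higher and 3 lower. CAVIN3, listed as PRKCDBP, fell to 145 ± 17.6 CPM in starved cells, against 391 ± 37.7 CPM in control cells (limma adjusted p = 9.7e-09). CAVIN1, listed as PTRF and needed for caveolae, was called higher at 53.0 ± 18.8 CPM in starved and 27.7 ± 10.8 CPM in control cells (limma adjusted p = 0.0334; named after its values were seen). Its groups overlap. The call ended without control replicates 1, 2 or 5 or starved replicates 2, 3 or 5, each left out in turn (adjusted p 0.0503 to 0.0977), and without control replicates 1 and 2 together (0.150). EHD1, a membrane-shaping ATPase, rose to 208 ± 44.5 CPM, against 75.6 ± 24.5 CPM in control cells, and FLOT1, a lipid raft protein, to 143 ± 14.8 CPM, against 48.9 ± 13.1 CPM. The other genes called lower were PACSIN3, with 5 counts in starved and 89 in control libraries, and FLOT2, with 5 and 55. Both were named after their values were seen, and their calls were not followed through the alternatives.

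Of the macropinocytosis machinery 5 of 32 tested genes were called higher and 8 lower, close to the 17.2% and 26.1% of all tested genes. SNX9, a membrane-bending sorting nexin, rose to 701 ± 80.7 CPM in starved cells, against 93.0 ± 20.7 CPM in control cells (7.54 times; limma adjusted p = 5.4e-13), more than any of the 10 genes on the fold scale. EEA1, an early endosome tether, rose to 376 ± 39.3 CPM, against 81.8 ± 20.4 CPM (limma adjusted p = 7.2e-10). The GTPase RAC1 was not called, with 531 ± 108 CPM in starved and 485 ± 32.9 CPM in control cells. The GTPase CDC42, named after its values were seen, missed the threshold at 326 ± 60.2 CPM in starved and 262 ± 27.7 CPM in control cells (limma adjusted p = 0.0694), but 6 of 21 alternatives called it higher, edgeR's quasi-likelihood test among them (adjusted p = 0.0127).

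Among PAK family members and partners 4 of 14 tested genes were called higher and 4 lower. CFL1, the actin-severing cofilin whose activity the PAK to LIM kinase route controls, fell to 239.97 ± 40.7 CPM in starved cells, against 872 ± 93.2 CPM in control cells (limma adjusted p = 5.3e-11). CDC42SE1, a small CDC42 effector, rose to 208 ± 31.5 CPM, against 55.4 ± 19.7 CPM, and DYNLL1, a dynein light chain, to 411 ± 40.4 CPM, against 299.5 ± 23.6 CPM. PAK4, a group II kinase named after its values were seen, fell to 6 counts over the starved libraries, against 47 over the control libraries (limma adjusted p = 0.00151). CFL1 has processed pseudogenes, so its level is uncertain.

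Of the regulators and effectors of ARF6 4 of 20 were called higher and 4 lower. ASAP2, a GTPase-activating protein, rose to 252 ± 27.7 CPM in starved cells, against 137 ± 14.6 CPM in control cells, and its relative ASAP1 was not called, with 153 ± 25.0 and 197 ± 35.3 CPM. SPAG9, the ARF6 effector JIP4, rose to 255 ± 25.8 CPM, against 75.1 ± 8.62 CPM (limma adjusted p = 5.3e-09). ADAP1 fell to 38.7 ± 15.4 CPM, against 202 ± 4.64 CPM (limma adjusted p = 1.6e-07).

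Beside CTTN the branched-actin genes were called higher in 8 of 24 cases and lower in 4. ARPC1B, a subunit of the actin-nucleating complex, fell to 1619 ± 328 CPM in starved cells, against 3696 ± 278 CPM in control cells (limma adjusted p = 9.6e-09), and its paralog ARPC1A to 1493 ± 133 CPM, against 1907 ± 145 CPM. The core subunit ACTR3 rose to 376 ± 37.8 CPM, against 220.3 ± 25.2 CPM, and ACTR2 was not called, with 469 ± 31.0 and 436 ± 46.0 CPM; both were named after their values were seen. WASF2, a WAVE protein that activates the complex, rose to 475 ± 51.7 CPM, against 227 ± 36.4 CPM (limma adjusted p = 5.1e-07).

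The partners of ezrin were called lower in 7 of 13 tested cases and higher in 0, against 26.1% lower and 17.2% higher among all tested genes. Their median log2 change was -0.76, against -0.22, and 1 of the 7, MSN, did not hold its call in most alternatives. The scaffolds SLC9A3R1 and SLC9A3R2, which bind the ezrin family, fell to 18.6 ± 6.15 and 53.7 ± 7.36 CPM in starved cells, against 92.4 ± 19.5 and 110.2 ± 8.40 CPM in control cells. RDX, which encodes the ezrin relative radixin and was named after its values were seen, fell to 71.1 ± 15.8 CPM, against 125 ± 30.9 CPM (limma adjusted p = 0.00326). MSN, moesin, likewise chosen, was called lower at 36.1 ± 12.3 against 61.1 ± 15.1 CPM (limma adjusted p = 0.0412), but 14 of 21 alternatives ended that call, all 3 other scalings and 7 left-out libraries among them (adjusted p 0.0523 to 0.135). CD44, a surface receptor tied to actin by this family, fell to 111 ± 27.0 CPM, against 169.7 ± 28.8 CPM, although the groups overlap, and the kinase SLK was not called.

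DAB2 partners and clathrin adaptors were called higher in 3 of 24 tested cases and lower in 7, close to the 17.2% and 26.1% of all tested genes. ITSN1, an endocytic scaffold, rose to 194 ± 35.5 CPM in starved cells, against 92.2 ± 12.8 CPM in control cells (limma adjusted p = 3.2e-05). AP2M1, a subunit of the clathrin adaptor AP-2, fell to 79.95 ± 29.8 CPM in starved cells, against 156 ± 17.4 CPM in control cells (limma adjusted p = 0.000534). EPN2, an epsin, fell to 33.2 ± 14.9 CPM, against 82.5 ± 22.0 CPM (limma adjusted p = 0.000746); both were named after their values were seen. The clathrin chains CLTA and CLTC were not called, with 267 ± 33.0 and 252 ± 16.8 CPM in starved and 257 ± 13.5 and 208 ± 27.1 CPM in control cells.

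**Figure D4:**
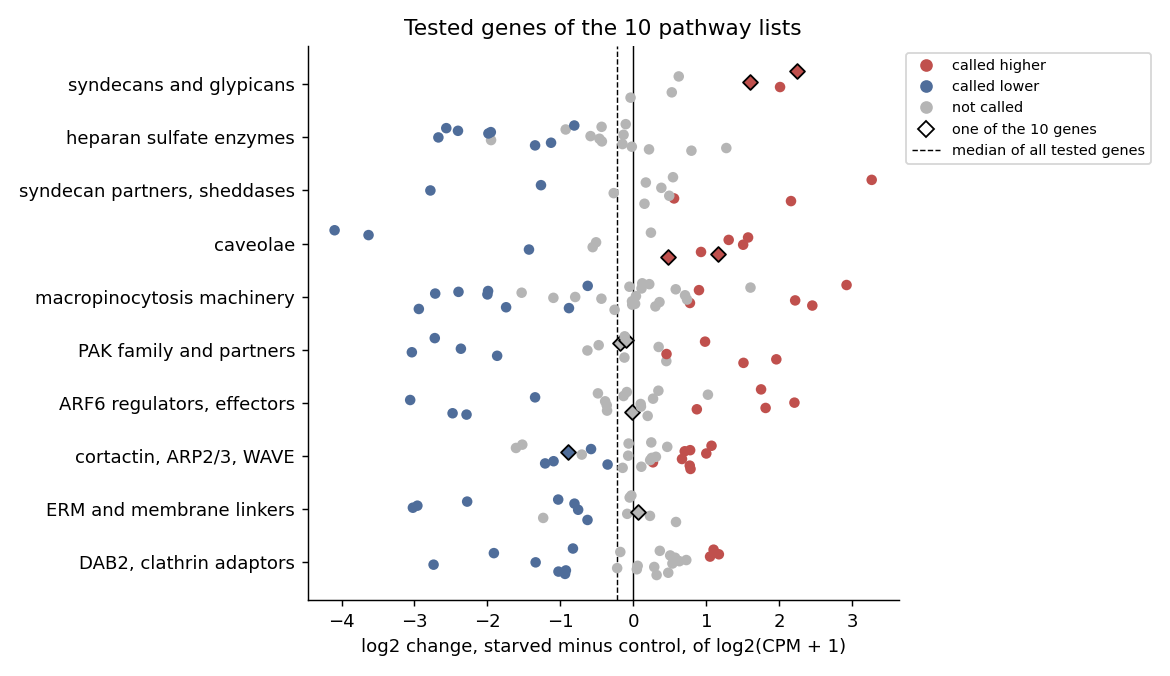
Log2 change of log2(CPM + 1), starved minus control (x axis), of each tested gene in 10 lists of partners (y axis); diamonds are the tested ones of the 10 genes, and the dashed line is the median of all tested genes. Heparan sulfate enzymes and ezrin partners hold no gene called higher, and the other lists hold genes on both sides except for syndecans and glypicans, where none was called lower.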

How the data were processed

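Gene expression was measured in 10 AsPC-1 libraries, 5 starved and 5 control, from 3' libraries (QIAseq UPX, per the labels' protocols) grouped by title. The deposited values are CPM, scaled by the authors to a sum of 1000000 per library; the submitters' processing notes name hg19, while no source used here names the aligner, counter, annotation, use of molecular identifiers or strand setting. Dividing each column by its smallest value gave whole counts for 100% of entries (tolerance 1e-06). These are tag counts near transcript ends, so ratios and shares between genes are of tags, not of transcripts, and are compared only between groups. Genes were kept by identifier, since 112 symbols are listed more than once.

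Groups were compared by limma-trend, two-sided (limma 3.58.1 in R 4.3.3), pseudocount 1, no covariates, adjusted over 11202 genes. The script was checked on simulated counts. Named genes are the 10 genes; per list, the 2 with the highest mean and the 2 called ones with the smallest p; and the 3 profiles nearest to the largest rise and the largest fall; others are marked as chosen later, and ones with counts or marker roles are named beside them. Some genes that this rule or that choice names are not reported here. Genes and lists were chosen with earlier results of these data known. Deviations of same-numbered libraries from their group means correlated at -0.02 to 0.02. At this depth counting error adds to such deviations, so a shared culture could go unseen and pairing is not excluded. Alternatives were other pseudocounts (0.5, 5), filters (none, 20 CPM), 3 scalings (quantile, TMM, median-of-ratios), edgeR 4.0.16, DESeq2 1.42.0, a replicate block, control replicates 1 and 2 left out together, since their index numbers stand apart in the descriptions, and each library left out in turn.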

Additional observations from a re-analysis of the deposited data

Results flagged for a closer look

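DAB2 was flagged in both groups because a single library stood apart from the other 4: starved replicate 1 at 5.06 CPM, against 0 in the other starved libraries, and control replicate 3 at 4.97 CPM, against 0 in the other control libraries. These are 3 and 2 counts. Where a single library of a group holds counts, the rule is met whatever their number. The other 18 of the 20 groups of 5 libraries examined, 2 for each of the 10 genes, held no library that stood apart in this way. About 1 in 20 groups of normally distributed values would hold one by chance, a rate that does not apply to DAB2.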

How the results depend on the processing

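The count of called genes among the 10 was 5, 4 higher and 1 lower, under each of the 21 alternatives, including each library left out. SDC1, SDC4, CAV1, CAV2 and CTTN kept their direction and call in all of them, with log2 changes of 1.58 to 1.70, 2.14 to 2.37, 0.42 to 0.57, 1.10 to 1.27 and -0.99 to -0.78. PAK1, PAK2, ARF6 and EZR were called in none. With a replicate block, 5 of the genes and 4801 of all tested genes were called, and the labels give same-numbered samples only the number in common. Over all genes 3856 to 5356 were called (4341 to 4649 with a library left out), and over the lists 63 to 86, with 43 higher and 43 lower in edgeR and 34 and 37 in DESeq2, against 32 and 47. The median log2 change of all genes, -0.22, was -0.02 with quantile scaling and -0.14 with median-of-ratios scaling; relative to the median, SDC1 changed by 1.82 (1.60 with quantile scaling), SDC4 by 2.46 (2.25), CAV2 by 1.39 (1.17), CAV1 by 0.70 (0.47) and CTTN by -0.67 (-0.90). Of 51 other genes chosen for naming 42 kept their side of the threshold throughout and 9 did not, and none turned direction with a call; besides GPC6, CAVIN1, MSN and CDC42, the 9 included ASAP1, RAC1 and SLK, each called under 1 alternative, and CLTC, under 2 (adjusted p 0.0174 to 0.0483 over these). Depth limits the report at DAB2, SDC2 and CAV3.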
